A study of Homo sapiens with 9 samples.

Results

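The 10 Krüppel-like factor (KLF) genes KLF3, KLF4, KLF5, KLF6, KLF7, KLF9, KLF10, KLF11, KLF13 and KLF16 were followed in the human kidney-derived line HEK293T, which carries the SV40 large T antigen, before heat stress, at its end and during recovery. They were taken by name, as transcription factor genes with short-lived transcripts, and were chosen with earlier results of these data known. All 10 were found by symbol among the 60664 genes of the deposited count table, and all 10 were tested. NC cells were untreated wild-type cells kept at 37 °C. H1 cells were heated at 43 °C for 1 h in a water bath, and H1R1, H1R6 and H1R18 cells were heated in the same way and then returned to 37 °C for 1, 6 and 18 h. Each condition had 2 libraries apart from H1R18, which had 1, and ribosomal RNA had been depleted from the total RNA before they were made.

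The libraries held 3814195 to 6221613 counts. Of 5 genes known for their expression in HEK293T cells, all 5 were detected in every condition, at a summed level of 225 to 302 CPM (counts scaled to library size and normalised by the TMM method). The sum was 262 to 272 CPM in NC, 297 to 302 at H1R1 and 225 at H1R18, and the part of this shift in the results for the KLF genes was not tested. Of the 5 genes, INA had only 2 to 12 counts in a library. PAX2 had log2 fold changes against NC of -0.93 at H1R1 and -0.97 at H1R6, and LIN28B 0.29 at H1R1. A list of 7 markers of Huh7 cells, a liver cancer line also used in the study, summed to 0 to 1.41 CPM, with 3 of them at 0 in every library. A list of 4 markers of HeLa cells, a cervical cancer line, summed to 6.67 to 13.04 CPM. Most of that was CAV1, at 6.26 to 11.6 CPM, while KRT7, KRT17 and CD44 were at 0 to 1.57 CPM in a library. The chaperone transcripts HSPH1 and DNAJB1 were higher at H1 than in NC, with log2 fold changes of 3.68 and 4.74 (SE 0.07 and 0.12, adjusted p = 6.55e-27 and 2.49e-23 from edgeR's quasi-likelihood test). Whether 2 libraries of 1 condition were grown as separate cultures is not given in the sources used here, so the p-values measure the spread between libraries, which may be technical.

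KLF proteins bind GC-rich and CACCC sequences in promoters through zinc fingers at their carboxyl end, while their amino ends recruit different partners. KLF3 binds the corepressor CtBP. KLF4, KLF5, KLF6 and KLF7 mostly activate transcription, often with the acetyltransferases EP300 and CREBBP. KLF9, KLF10, KLF11, KLF13 and KLF16 carry a motif that binds the corepressor SIN3A. Several KLF genes behave as early response genes, whose transcripts are made quickly after serum, TGF-β or stress and are quickly degraded.

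Promoter windows from RefSeq (GRCh38.p14) were used for 8 of the 10 genes, and 3 of them are shown as the bases before the first exon, because KLF6 was called higher at H1, KLF9 was not, and KLF16 had the highest level per length of the 10. Each is written 5′ to 3′ on the gene's own strand. Capitals mark matches on either strand to the GC box (GGGCGG), the CCAAT box (CCAAT), the E-box (CACGTG) and the CRE (TGACGTCA), and adjoining capitals may be overlapping matches. The windows are chr10:3785282-3785459 on the minus strand for KLF6, chr9:70414658-70414907 on the minus strand for KLF9 and chr19:1863580-1863829 on the minus strand for KLF16.
KLF6: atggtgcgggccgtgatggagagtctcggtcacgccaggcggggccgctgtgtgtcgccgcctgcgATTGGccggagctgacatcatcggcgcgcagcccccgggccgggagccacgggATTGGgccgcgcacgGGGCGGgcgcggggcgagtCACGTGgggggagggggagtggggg
KLF9: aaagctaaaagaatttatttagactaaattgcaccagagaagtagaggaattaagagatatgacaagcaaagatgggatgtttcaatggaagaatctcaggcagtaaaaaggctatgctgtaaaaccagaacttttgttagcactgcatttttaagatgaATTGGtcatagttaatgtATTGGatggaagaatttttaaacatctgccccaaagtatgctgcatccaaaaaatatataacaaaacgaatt
KLF16: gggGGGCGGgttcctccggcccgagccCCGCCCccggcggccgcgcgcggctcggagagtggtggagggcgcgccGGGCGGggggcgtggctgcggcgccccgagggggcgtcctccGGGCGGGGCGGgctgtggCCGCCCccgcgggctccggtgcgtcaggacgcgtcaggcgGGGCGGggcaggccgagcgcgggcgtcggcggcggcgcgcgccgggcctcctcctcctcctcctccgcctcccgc
The stretch before KLF6, of 178 bases, held 1 GC box, 2 CCAAT boxes and 1 E-box. Its full window of 250 bases held 2 GC boxes at a GC content of 72.4%, at percentile 84.6 of all windows, whose median was 58.0%. The stretches before KLF9 and KLF16 were full windows. That before KLF9 held 2 CCAAT boxes and no GC box, and its GC content of 32.4% was at percentile 2.92. That before KLF16 held 7 GC boxes at a GC content of 86.4%, at percentile 99.8. Of the 35116 windows of 250 bases in the table, 42.6% held a GC box, 32.0% a CCAAT box, 6.34% the E-box and 1.65% the CRE. The heat shock element searched (GAA, any 2 bases, TTC, any 2 bases, GAA, on either strand) was in 0.441% of all windows and in 0 of the 13 windows of the 8 genes, which says only that these letters are not in these windows. The counts do not show which start site the cells used.

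Which of the 10 transcripts were higher or lower than in NC changed from time to time. At H1, KLF6, KLF10 and KLF11 were higher, 3 of the 10, and 0 were lower, where 3.43% of the 21139 genes tested were called higher and 1.77% lower. At H1R1, KLF3, KLF6, KLF10, KLF11 and KLF16 were higher and KLF9 was lower, 6 of the 10, where 10.7% of all genes were called higher and 9.53% lower. At H1R6, 0 were higher and 2, KLF3 and KLF7, were lower (3% of all genes higher and 4.03% lower), and at H1R18 KLF6 and KLF16 were higher and KLF3 and KLF10 lower (4.58% of all genes higher and 6.43% lower). A call here is an adjusted p under 0.05 in edgeR's quasi-likelihood test. The 10 were chosen with earlier results of these data known, so an excess over the shares of all genes is not an independent result. The median log2 fold change of the 10 against NC was 0.46 at H1, 0.47 at H1R1, -0.23 at H1R6 and 0.24 at H1R18, beside -0.01, -0.01, -0.01 and -0.03 over all genes tested. All 4 comparisons used the same 2 NC libraries, so that an NC library that stood apart would move them together. In RNA from whole cultures, a change in the share of cells that express a gene and a change in RNA per cell cannot be told apart.

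**Figure D1:**
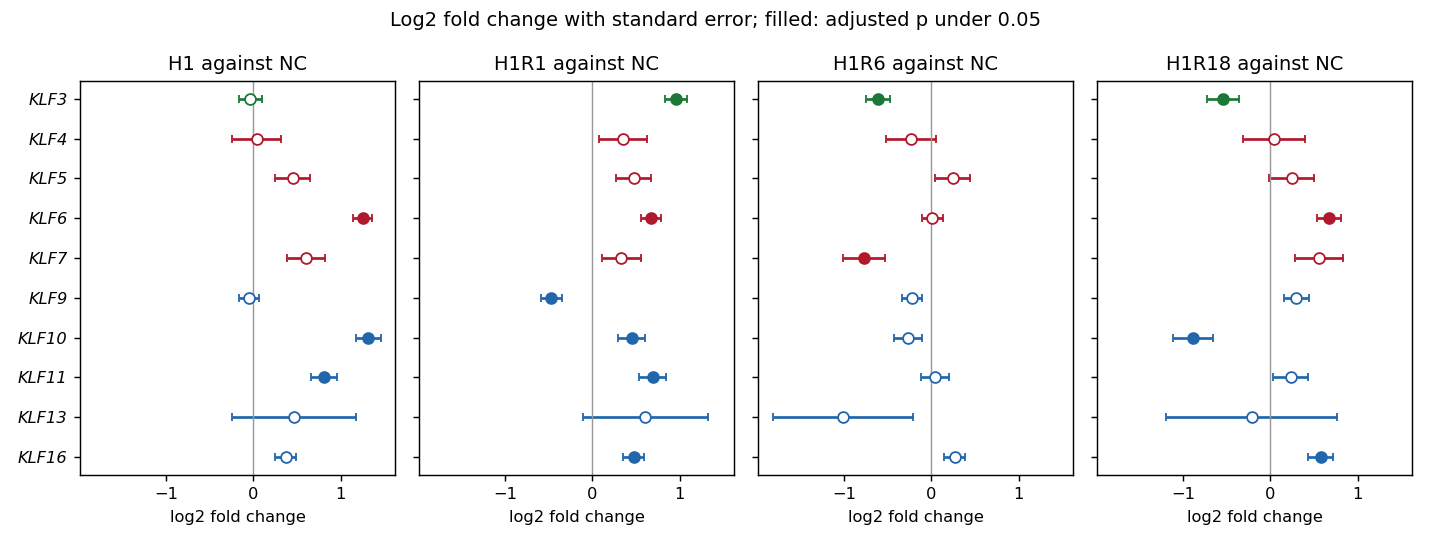
Log2 fold change of the 10 KLF transcripts against NC (horizontal axis) at H1, H1R1, H1R6 and H1R18, with bars of 1 standard error. Green is KLF3, red the activators and blue the SIN3A-binding repressors, and filled dots passed an adjusted p of 0.05. KLF6, KLF10 and KLF11 are filled to the right at H1, and 2 dots, those of KLF3 and KLF7, are filled to the left at H1R6.

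Between consecutive times, KLF3 rose from H1 to H1R1, and 3 members, KLF6, KLF9 and KLF10, fell (6.35% of all genes were called higher and 5.08% lower). From H1R1 to H1R6, 5 members fell, namely KLF3, KLF6, KLF7, KLF10 and KLF11, and 0 rose (6.43% of all genes were called higher and 8.93% lower). From H1R6 to H1R18, KLF6, KLF7 and KLF9 rose and 0 fell (6.28% of all genes were called higher and 7.65% lower). KLF4, KLF5 and KLF13 were called in none of the 7 comparisons.

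**Figure D2:**
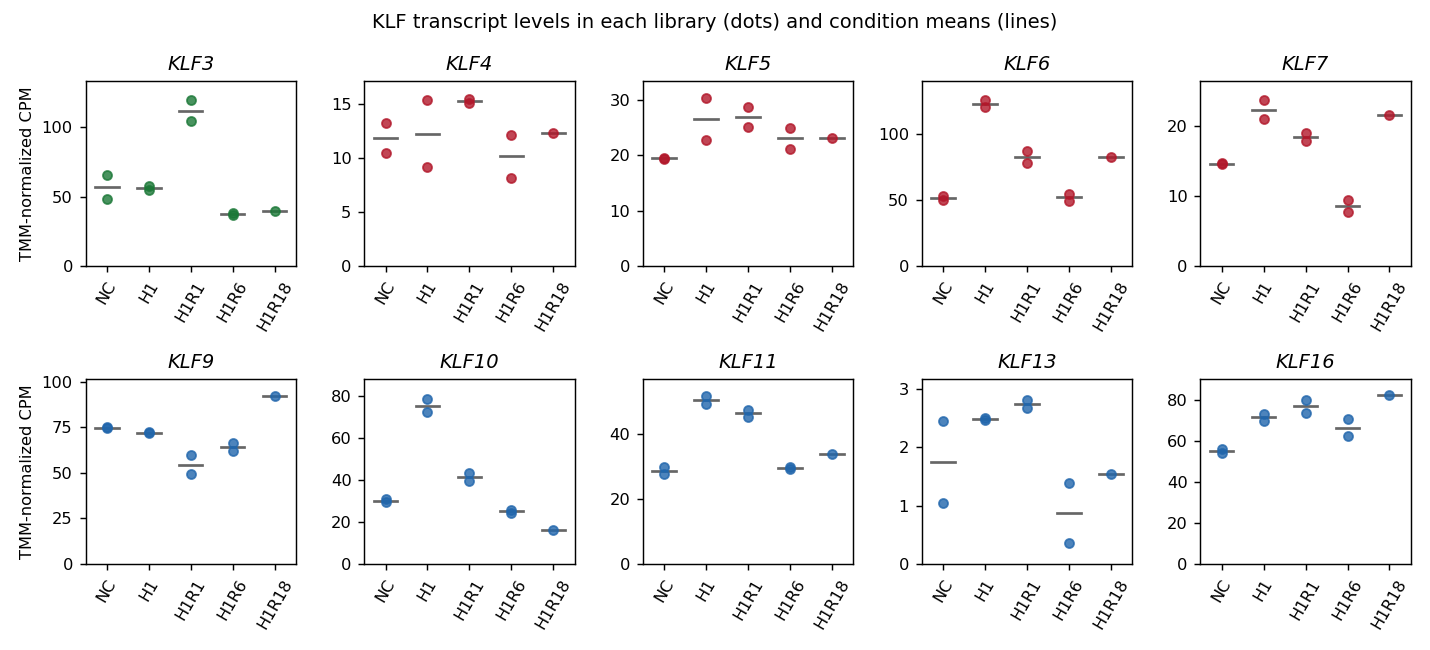
TMM-normalized CPM (vertical axis, from 0 and scaled for each gene) of the 10 KLF transcripts by condition, with a dot for each library and a line at the condition mean. KLF6 and KLF10 are highest at H1, KLF3 at H1R1 and KLF9 at H1R18, and H1R18 has a single dot.

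Levels of different genes were compared as CPM per kb of exon. In NC the order was KLF16 (18.6 ± 0.492 CPM per kb, SD, n = 2), KLF9 (14.4 ± 0.0622), KLF3 (8.43 ± 1.79), KLF6 (8.40 ± 0.377), KLF10 (7.92 ± 0.193), KLF11 (6.25 ± 0.325), KLF5 (5.28 ± 0.0514), KLF4 (3.23 ± 0.544), KLF7 (1.58 ± 0.00534) and KLF13 (0.185 ± 0.105). KLF3, at 9.70 and 7.17 CPM per kb in the NC libraries, did not differ from KLF6 or KLF10 beyond that spread, while the libraries of the other neighbours in the order did not overlap. At H1 the order from the top was KLF16 (24.0 ± 0.773), KLF6 (19.98 ± 0.666), KLF10 (19.8 ± 1.18) and KLF9 (13.9 ± 0.102), and KLF6 and KLF10 overlapped. At H1R1, KLF3 (16.5 ± 1.52) followed KLF16 (25.9 ± 1.49), with KLF6 (13.4 ± 0.986) after it. At H1R6 KLF16 (22.3 ± 1.96) and KLF9 (12.3 ± 0.638) were again the first and the second, followed by KLF6 (8.45 ± 0.660), KLF10 (6.58 ± 0.301) and KLF11 (6.45 ± 0.0896), and the libraries of KLF10 and KLF11 overlapped. In the single H1R18 library KLF16 (27.7 CPM per kb), KLF9 (17.7) and KLF6 (13.4) led, and KLF10 (4.30) had dropped to rank 7.

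The summed level of the 10 was 76.4 and 72.0 CPM per kb in the NC libraries, 108 and 112 in those of H1, 98.0 and 104.1 in those of H1R1, 71.3 and 72.2 in those of H1R6, and 88.4 in that of H1R18. The H1 and H1R1 libraries lay above all others, and H1R6 overlapped NC. Within that sum, the share of KLF6 was on average 11.3% in NC and 18.1% at H1, and that of KLF10 10.7% and 17.9%. KLF3 made up 11.3% in NC, 7.55% at H1 and 16.4% at H1R1. KLF9 made up 19.4% in NC and 10.3% at H1R1, a share that depends on the other 9 as well as on KLF9 itself.

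**Figure D3:**
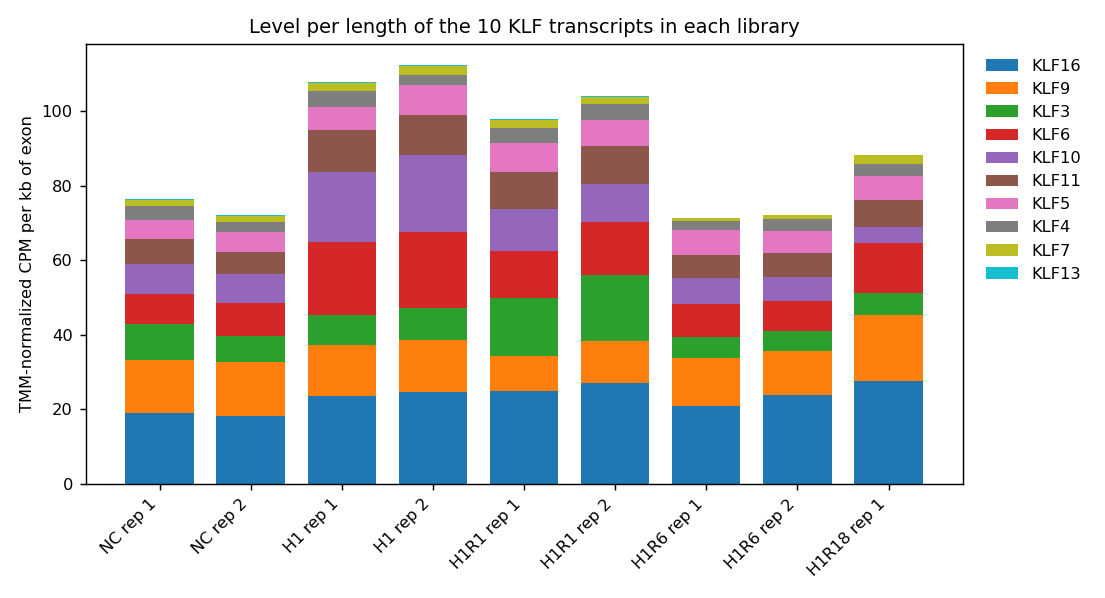
TMM-normalized CPM per kb of exon (vertical axis) of the 10 KLF transcripts, stacked in each library. The stacks of the H1 and H1R1 libraries reach 98.0 to 112 CPM per kb, and those of NC and H1R6 71.3 to 76.4.

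KLF3 (ENSG00000109787, chr4:38664197-38701517, plus strand), the CtBP-binding repressor known from blood and fat cells, was highest 1 h into recovery. It stood at 65.7 and 48.5 CPM in the NC libraries, 54.5 and 58.1 in those of H1, 105 and 119 in those of H1R1, 38.3 and 37.2 in those of H1R6, and 39.5 in that of H1R18. Both H1R1 libraries were above every other library, both H1R6 libraries and the H1R18 library were below every NC and H1 library, and H1 lay within the range of NC. Against NC the log2 fold change was 0.96 at H1R1 (SE 0.13, adjusted p = 1.44e-06), -0.61 at H1R6 (SE 0.14, adjusted p = 0.00479), -0.54 at H1R18 (SE 0.18, adjusted p = 0.0497) and -0.03 at H1 (SE 0.13, adjusted p = 0.946). From H1 to H1R1 it rose by 0.99 in log2 units (SE 0.12, adjusted p = 2.01e-06), and from H1R1 to H1R6 it fell by 1.56 (SE 0.13, adjusted p = 1.5e-10). The NC libraries of KLF3 differed from each other, and without NC replicate 1 the differences at H1R6 and H1R18 were -0.34 and -0.27 and neither was called (adjusted p = 0.255 and 0.42). The call at H1R6 was also lost without H1R6 replicate 2 (-0.57, adjusted p = 0.0822), and that at H1R18 in 14 of 17 alternative analyses.

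Of the activators, KLF6 (ENSG00000067082, chr10:3775996-3785281, minus strand), a growth-restraining factor first found as a binder of a core promoter element, had the highest log2 fold change at H1. Its level was 49.96 and 53.2 CPM in the NC libraries, 120 and 126 in those of H1, 78.2 and 86.7 in those of H1R1, 54.8 and 49.0 in those of H1R6, and 82.1 in that of H1R18. H1 was above every other condition, H1R1 and H1R18 lay between H1 and NC, and H1R6 overlapped NC. KLF6 was therefore high at the end of heat, back in the range of NC at 6 h and higher again in the 18 h library. Against NC the log2 fold change was 1.25 at H1 (2.38-fold, SE 0.11, adjusted p = 1.21e-09), 0.67 at H1R1 (SE 0.12, adjusted p = 6.04e-05), 0.01 at H1R6 (SE 0.12, adjusted p = 0.979) and 0.67 at H1R18 (SE 0.14, adjusted p = 0.00151). Between consecutive times it fell by 0.58 (SE 0.10, adjusted p = 0.000293) and by 0.66 (SE 0.11, adjusted p = 6.92e-05) and then rose by 0.66 (SE 0.14, adjusted p = 0.00116). H1R18 is 1 library, whose spread was taken to be like that of the other conditions, and its values have no replicate check.

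KLF7 (ENSG00000118263, chr2:207074137-207167267, minus strand), known for its part in the growth of nerve fibres, was lowest at 6 h of recovery. It stood at 14.7 and 14.6 CPM in the NC libraries, 21.0 and 23.7 in those of H1, 19.0 and 17.8 in those of H1R1, 7.77 and 9.39 in those of H1R6, and 21.6 in that of H1R18. The H1R6 libraries were below all others and the H1 and H1R1 libraries above NC. KLF7 fell from H1R1 to H1R6 by 1.10 in log2 units (SE 0.23, adjusted p = 0.00103) and rose from H1R6 to H1R18 by 1.33 (2.51-fold, SE 0.28, adjusted p = 0.00123). Against NC the log2 fold changes were 0.61 at H1 (adjusted p = 0.108), 0.33 at H1R1 (adjusted p = 0.322), -0.77 at H1R6 (SE 0.24, adjusted p = 0.0482) and 0.56 at H1R18 (adjusted p = 0.207). The call at H1R6 was lost in 15 of 18 alternative analyses, with log2 fold changes of -0.89 to -0.62 over all 18, and among the 15 were those without either NC, H1 or H1R6 library or without H1R1 replicate 1.

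KLF4 (ENSG00000136826, chr9:107484852-107490482, minus strand), one of the factors used to reprogram cells to pluripotency, had 40 to 90 counts in a library and 8.12 to 15.5 CPM, and its NC libraries (13.3 and 10.4 CPM) overlapped those of H1 (15.3 and 9.18). KLF5 (ENSG00000102554, chr13:73054976-73077541, plus strand), which promotes growth of epithelial cells, was at 19.6 and 19.3 CPM in NC and at 21.2 to 30.4 CPM in the 7 later libraries. Each later library of KLF5 was above both NC libraries, but the largest log2 fold change against NC, 0.47 at H1R1 (SE 0.20), did not pass the test (adjusted p = 0.0959). For KLF4 the log2 fold changes against NC were -0.23 to 0.35, with SEs of 0.28 to 0.36.

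KLF10 (ENSG00000155090, chr8:102648784-102655725, minus strand) was first found as an early gene induced by TGF-β and represses growth through SIN3A. It stood at 30.8 and 29.7 CPM in the NC libraries, 72.4 and 78.8 in those of H1, 43.3 and 39.4 in those of H1R1, 26.0 and 24.3 in those of H1R6, and 16.4 in that of H1R18. The H1 libraries were the highest and the H1R18 library the lowest, and the conditions did not overlap. Of the 10 members KLF10 had the highest log2 fold change at H1, 1.32 (2.49-fold, SE 0.15, adjusted p = 1.33e-07), and the lowest at H1R18, -0.88 (SE 0.23, adjusted p = 0.00894). The log2 fold change at H1R1 was 0.45 (SE 0.15, adjusted p = 0.0346), a call that was lost in 9 of 18 alternative analyses (0.38 to 0.51 over all 18), among them those without NC replicate 1 (0.48), NC replicate 2 (0.44), H1 replicate 1 (0.45), H1 replicate 2 (0.45) or H1R1 replicate 1 (0.38). It fell by 0.87 from H1 to H1R1 (SE 0.14, adjusted p = 6.21e-05) and by 0.72 from H1R1 to H1R6 (SE 0.15, adjusted p = 0.00107). From H1R6 to H1R18 the log2 difference was -0.61 (SE 0.23, adjusted p = 0.0671).

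KLF11 (ENSG00000172059, chr2:10042849-10054836, plus strand), the closest relative of KLF10 and known for its part in insulin production, was higher than in NC at both H1 and H1R1. Its level was 29.8 and 27.7 CPM in the NC libraries, 51.7 and 49.3 in those of H1, 45.4 and 47.6 in those of H1R1, 29.3 and 29.9 in those of H1R6, and 33.9 in that of H1R18. H1 and H1R1 lay above all other libraries, and H1R6 overlapped NC. The log2 fold change against NC was 0.81 at H1 (SE 0.15, adjusted p = 0.000653) and 0.69 at H1R1 (SE 0.15, adjusted p = 0.00135). From H1 to H1R1 it differed by -0.12 (SE 0.14, adjusted p = 0.67), and from H1R1 to H1R6 it fell by 0.65 (SE 0.15, adjusted p = 0.00239).

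KLF9 (ENSG00000119138, chr9:70384604-70414657, minus strand), which is induced by glucocorticoid and thyroid hormones, was the 1 member that fell against NC at H1R1. It stood at 74.4 and 74.9 CPM in the NC libraries, 71.7 and 72.4 in those of H1, 49.1 and 59.5 in those of H1R1, 66.4 and 61.7 in those of H1R6, and 91.9 in that of H1R18. Both H1R1 libraries were below every other library and the H1R18 library was above every other. The log2 fold change was -0.47 at H1R1 against NC (SE 0.12, adjusted p = 0.00512), -0.42 from H1 to H1R1 (SE 0.12, adjusted p = 0.0183) and 0.52 from H1R6 to H1R18 (SE 0.14, adjusted p = 0.0113). Without H1R1 replicate 1, the lower of the H1R1 libraries, the first was -0.32 (adjusted p = 0.147) and the second -0.27 (adjusted p = 0.309). The second was also lost without H1 replicate 1 or H1 replicate 2 (-0.42 in each), and the third without H1R6 replicate 2 (0.47, adjusted p = 0.0793).

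KLF16 (ENSG00000129911, chr19:1852399-1863579, minus strand), a repressor known from the regulation of dopamine receptor genes, was at 56.1 and 54.0 CPM in the NC libraries, 69.7 and 72.9 in those of H1, 73.7 and 79.9 in those of H1R1, 62.2 and 70.4 in those of H1R6, and 82.1 in that of H1R18. All 7 later libraries were above both NC libraries. The log2 fold change against NC passed the test at H1R1 (0.48, SE 0.12, adjusted p = 0.00379) and H1R18 (0.58, SE 0.14, adjusted p = 0.00767), and was 0.37 at H1 (SE 0.12, adjusted p = 0.0603) and 0.27 at H1R6 (SE 0.12, adjusted p = 0.197). With at least 10 counts required in every library, the difference at H1 passed (0.38, adjusted p = 0.0352). KLF13 (ENSG00000169926, chr15:31326835-31435665, plus strand), an activator of the chemokine gene CCL5 in T cells, had only 2 to 16 counts in a library, and no difference was detectable at this depth (SE 0.67 to 1.02 on the log2 scale).

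Reads were counted without regard to strand, so reads of overlapping genes cannot be assigned by strand. KLF3-AS1, opposite KLF3, had at most 12 counts in a library against 154 to 627 for KLF3, and the genes KLF7-IT1, MYOSLID, MIR2355 and MIR7845 within KLF7 had at most 8 each. ENSG00000267141, opposite KLF16, had 4 to 14 counts. REXO1, a gene for an RNA exonuclease 3916 bases from KLF16 on the same strand, was higher than in NC at H1R6 (0.47, SE 0.12, adjusted p = 0.0116) and H1R18 (0.48, SE 0.15, adjusted p = 0.0325). Both of these calls were lost without NC replicate 1 (0.39 and 0.40), and the first also without H1R6 replicate 2 (0.41). ENSG00000261526, a lincRNA 11292 bases upstream of KLF16 on its strand, had 2 to 21 counts and was higher at H1 (2.69, SE 0.78, adjusted p = 0.0368) and H1R1 (2.54, SE 0.79, adjusted p = 0.0213). Both calls were lost without NC replicate 1 or NC replicate 2, and the second also without H1R1 replicate 1. The first was also lost without H1 replicate 1, H1 replicate 2 or H1R6 replicate 2, with DESeq2 and with only the conditions compared. The values stayed between 2.29 and 2.95 in every alternative.

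Among the 8 other KLF genes, 5 had enough counts for the test, and KLF15, a regulator of amino acid and glucose metabolism, was lower than in NC at H1 and H1R1. It stood at 31.8 and 24.0 CPM in the NC libraries, 16.4 and 16.4 in those of H1, 8.35 and 11.7 in those of H1R1, 21.5 and 25.4 in those of H1R6, and 29.5 in that of H1R18. The H1 and H1R1 libraries were below all others. KLF15 was lower than NC by 0.77 at H1 (log2 fold change -0.77, SE 0.21, adjusted p = 0.0239) and by 1.51 at H1R1 (-1.51, SE 0.23, adjusted p = 1.15e-05), and it rose by 1.25 from H1R1 to H1R6 (SE 0.23, adjusted p = 0.00021). The call at H1 was lost with DESeq2 and without NC replicate 1, H1 replicate 1 or H1 replicate 2, with values from -0.95 to -0.54 over the alternatives.

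KLF2, known from the response of blood vessel cells to flow, had 6 to 58 counts and was higher at H1R1 (1.34, SE 0.45, adjusted p = 0.0321) and lower from H1R1 to H1R6 (-1.88, SE 0.45, adjusted p = 0.00419). Without H1R1 replicate 2, both calls were lost, and they moved to 0.67 and -1.21. The H1R1 call was also lost without NC replicate 2 (0.77), with DESeq2 and with only the conditions compared, and its value was 2.51 without NC replicate 1. The call from H1R1 to H1R6 was also lost without H1R6 replicate 1 or H1R6 replicate 2. At H1 the log2 fold change of KLF2 was close to that at H1R1 but not called (1.33, SE 0.44, adjusted p = 0.0772). It was called there in 2 of 17 alternative analyses. KLF12, another CtBP-binding repressor, was higher at H1R18 (0.55, SE 0.15, adjusted p = 0.015), a call lost without NC replicate 1 (0.49). KLF8 and KLF14, with 0 to 16 counts, passed no test in the fit of all 9 libraries. Without H1R1 replicate 2, KLF8 was called in the comparisons of H1R1 with NC, H1 and H1R6. Its log2 fold change at H1R1 against NC was then -6.39, and the H1R1 library left held 0 counts of it. Of the 9 SP genes, the nearest relatives of the KLF family, 7 were tested, and 1 passed in any comparison: SP1 was higher at H1R18 (0.44, SE 0.09, adjusted p = 0.00178). SP1 was also called higher from H1R1 to H1R6 in 7 of 18 alternative analyses. In the fit of all 9 libraries, SP2, SP3, SP4, SP6, SP8 and SP9 had log2 fold changes against NC of -0.27 to 0.67 and no call. Over the alternatives, that of SP8 at H1R1 was 0.13 to 1.23, the highest without NC replicate 1. For SP3 at H1R1 it was 0.14 to 0.32, the highest without NC replicate 2.

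**Figure D4:**
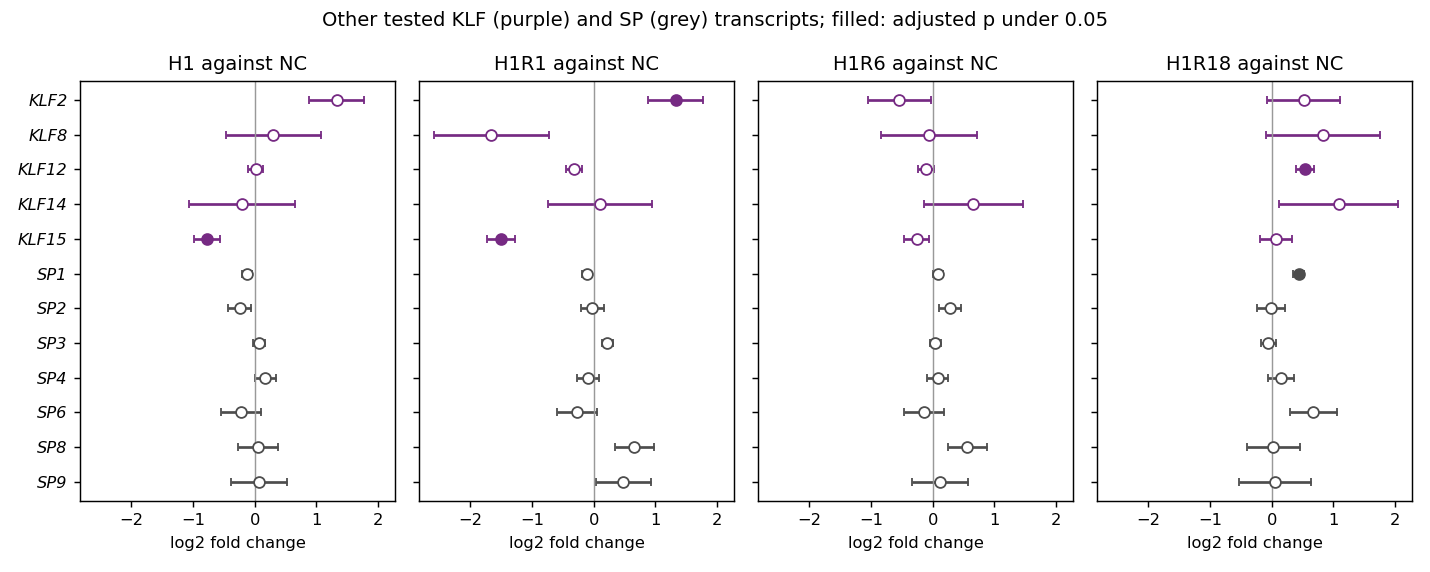
Log2 fold change against NC (horizontal axis) of the 5 other tested KLF transcripts (purple) and the 7 tested SP transcripts (grey) at 4 times, with bars of 1 standard error. KLF15 lies to the left at H1 and H1R1, and SP1 is the 1 SP transcript whose dot is filled, at H1R18.

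Among 14 genes for proteins that the KLF factors bind or that mark them for degradation, 1 was higher and 1 lower at H1, 6 were higher and 1 lower at H1R1, 1 was higher at H1R6 and 1 lower at H1R18. Among all genes tested, 3.43% were called higher and 1.77% lower at H1, and 10.7% were higher at H1R1, where 9.53% were lower. The share was 3% for genes higher at H1R6 and 6.43% for genes lower at H1R18. A single gene among 14 is near such shares, while the 6 at H1R1 are above theirs. The list was chosen with earlier results of these data known, so that excess is not an independent result. The median log2 fold change of the 14 against NC was 0.12 at H1, 0.22 at H1R1, 0.07 at H1R6 and -0.09 at H1R18. SIN3A, the corepressor bound by KLF9, KLF10, KLF11, KLF13 and KLF16, was at 194 and 184 CPM in the NC libraries, 146 and 146 in those of H1, 109 and 109 in those of H1R1, 224 and 191 in those of H1R6, and 214 in that of H1R18. The H1 and H1R1 libraries were below every other library. The log2 fold change against NC was -0.37 at H1 (SE 0.09, adjusted p = 0.00883) and -0.79 at H1R1 (SE 0.09, adjusted p = 1.05e-07), and it rose by 0.92 from H1R1 to H1R6 (SE 0.09, adjusted p = 4.35e-09). The call at H1 was lost without NC replicate 1, H1 replicate 1 or H1 replicate 2 (-0.40 to -0.33 over the alternatives). EP300, a coactivator, was higher at H1 (0.33, SE 0.09, adjusted p = 0.0165), a call lost without NC replicate 2, H1 replicate 1 or H1 replicate 2 (0.20 to 0.51 over the alternatives), and at H1R1 (0.65, SE 0.09, adjusted p = 1.3e-06). CREBBP was higher at H1R1 by 0.37 (SE 0.08, adjusted p = 0.00108), as were HDAC1 and HDAC2 by 0.24 each (adjusted p = 0.0171 and 0.0254). The HDAC1 call was lost without NC replicate 2 or H1R1 replicate 2 and with library size only (0.18 to 0.28 over the alternatives). The HDAC2 call was lost without NC replicate 1 or H1R1 replicate 1 (0.18 to 0.30 over the alternatives). It was also lost with upper-quartile factors, library size only or only the conditions compared.

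Of 12 genes reported in the literature as KLF targets, 3 were higher at H1 (3.43% of all genes), 5 at H1R1 (10.7% of all genes) and 1 at H1R6 (3% of all genes), and 4 were lower at H1R18 (6.43% of all genes). The 12 were also chosen with earlier results of these data known, so their counts are not an independent result. Their median log2 fold change was 0.04, 0.28, -0.06 and -0.39 at the 4 times. SMAD7, which blocks TGF-β signalling and is repressed by KLF10 and KLF11 in other cells, was at 60.4 and 38.6 CPM in the NC libraries, 132 and 149 in those of H1, 306 and 277 in those of H1R1, 58.6 and 56.7 in those of H1R6, and 28.2 in that of H1R18. Its log2 fold change against NC was 1.48 at H1 (SE 0.13, adjusted p = 4.3e-10), 2.54 at H1R1 (SE 0.12, adjusted p = 2.84e-16) and -0.83 at H1R18 (SE 0.20, adjusted p = 0.00484), the last lost without NC replicate 1 (-0.43). SMAD7 was thus highest at H1R1, as KLF3 was, and lowest at H1R18, as KLF10 was. The patterns differed at H1, where KLF3 was at -0.03 against NC and KLF10 was at its highest. These extremes were not particular to these genes. DNAJB1 also had its highest mean at H1R1 (3755 CPM) and its lowest at H1R18 (59.0), while HSPH1 was highest at H1R1 (2720) and lowest in NC (134). CCNE1, a cyclin of the entry into S phase, was higher at H1 (0.76, SE 0.18, adjusted p = 0.00834), a call lost without NC replicate 2 or H1 replicate 1 (0.61 to 0.91 over the alternatives), and at H1R1 (1.09, SE 0.18, adjusted p = 3.32e-05). ODC1, an enzyme of polyamine synthesis, was lower at H1R18 (-0.84, SE 0.11, adjusted p = 1.17e-06), and BIRC5 was higher at H1R1 (0.33, SE 0.08, adjusted p = 0.00557), a call lost without H1R1 replicate 2 (0.27). A list of this kind holds targets that KLF proteins activate and others that they repress.

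The list of inputs to KLF genes, 13 genes of TGF-β, MAP kinase and serum response signalling, held 0 calls at H1 and 0 at H1R18, where 4.58% of all genes were called higher and 6.43% lower. TGFBR1 was lower at H1R1 (-0.33, SE 0.11, adjusted p = 0.0254). That call was lost with DESeq2 and without any 1 of the NC and H1R1 libraries (-0.40 to -0.30 over the alternatives). MAPK3, SRF and SMAD4 had log2 fold changes against NC of -0.25 to 0.43 and no call there. The value of SMAD4 at H1R18 was close to the threshold (0.43, SE 0.14, adjusted p = 0.0507), and it was called higher in 7 of 17 alternative analyses, among them that without NC replicate 1 (0.55, adjusted p = 0.0319), so that the count of 0 at H1R18 becomes at least 1 in those. Of 11 genes for proteins that bind or degrade short-lived transcripts, 2 were higher at H1 (3.43% of all genes), 6 at H1R1 (10.7% of all genes) and 1 at H1R6 (3% of all genes), and 1 was lower at H1R18 (6.43% of all genes). The single genes at H1R6 and H1R18 are near the shares over all genes. This list too was chosen with earlier results of these data known, so the counts at H1 and H1R1 are not an independent result. The median log2 fold change of the 11 was 0.03, 0.33, -0.02 and 0.04 at the 4 times. ZFP36L2, which directs AU-rich transcripts to decay, was higher at H1 (0.59, SE 0.10, adjusted p = 0.00017) and H1R1 (0.70, SE 0.10, adjusted p = 4.49e-06), and HNRNPD was higher at H1R1 (0.34, SE 0.07, adjusted p = 0.00114). KHSRP was lower at H1R18 (-0.48, SE 0.08, adjusted p = 5.6e-05), and CNOT1, of the deadenylase complex, was called against NC at no time (-0.20 to 0.16).

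For each of the 10, the genes with the nearest pattern were sought by the Euclidean distance between the 4 log2 fold changes against NC, among genes whose average log2 CPM was 3 or more. KLF3 was nearest to SLC38A2, an amino acid transporter (distance 0.455), and KLF6 to ENSG00000272054 (0.269) and MRPS6, a mitochondrial ribosomal protein (0.366). KLF10 was nearest to RFTN2 (0.406) and ENSG00000278576 (0.502), KLF11 to ABHD5 (0.161) and TNRC6C (0.200), and KLF7 to ATF7IP2 (0.243) and BAIAP3 (0.399). For KLF9 they were ZNF445 (0.0636) and AASDH (0.0705), for KLF16 TM2D1 (0.0494) and GJC1 (0.0676), for KLF4 SH3RF3 (0.0513) and LYSMD3 (0.0786), for KLF5 SLC9A5 (0.0769) and DCLRE1C (0.0949), and for KLF13 GNB1L (0.345) and CSPG5 (0.455). The second for KLF3 was MIR3648-2 (0.499). The distances rest on 4 values a gene that share the NC libraries, and no other member was among the 2 nearest genes of any member.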

How the data were processed

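RNA-seq counts were analysed for 9 HEK293T libraries. The authors deposited whole counts per gene and library, made per their file header and processing notes with cutadapt 4.1 for trimming, HISAT2 2.2.1 for alignment to GRCh38 and featureCounts 2.0.2 with the gene models of Ensembl 104. Each read of a pair was counted, so 81.8% to 87.5% of counts above 0 were even. Strand was not used, and reads with several alignments or genes were not counted. Of the 60664 identifiers, 99.7% had a symbol. Unused per-sample columns numbered 0. The notes also name DESeq2 1.38.3.

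Genes were kept by filterByExpr (minimum count 10, minimum total 15) in edgeR 4.0.16 (R 4.3.3), which left 21139 genes, and 18871 when the single H1R18 library was left out. All 10 KLF genes passed either way. TMM-scaled counts of all 9 libraries were fitted in 1 quasi-likelihood model with 1 coefficient per condition, and Benjamini-Hochberg adjusted p-values were taken over every gene tested. The SE was the log2 fold change divided by the square root of F. Library totals had a median of 5533404 counts, and the fit's common biological coefficient of variation was 0.0905. Between libraries of a condition, the chi-square per degree of freedom on halved counts was 1.72 to 2.35, so no library was a copy of another.

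The rule for naming genes takes all members, genes overlapping or within 5 kb, the nearest same-strand gene within 30 kb upstream where tested, every tested KLF and SP gene, from each other list the 3 genes of highest average log2 CPM and the 3 of smallest adjusted p against NC, and the 2 genes nearest in pattern to each member. Some genes that the rule names are not reported here. The members and lists were chosen with earlier results of these data known. As alternatives, DESeq2 1.42.0 replaced edgeR, TMM was replaced by RLE or upper-quartile factors or by library size only, the filter was dropped or raised to 10 counts in each library, the fit was limited to the conditions compared or given a replicate block, counts were halved, and each library was left out. The fit was tested on simulated data.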

Additional observations from a re-analysis of the deposited data

Results flagged for a closer look

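The effect of heat on 6 members differed between consecutive times, by edgeR's quasi-likelihood test of the difference itself over all genes (adjusted p under 0.05), which made 12 differences. From H1 to H1R1 the log2 fold change was 0.99 for KLF3, -0.58 for KLF6, -0.42 for KLF9 and -0.87 for KLF10, so KLF3 differed in sign from the other three. From H1R1 to H1R6 it was -1.56 for KLF3, -0.66 for KLF6, -1.10 for KLF7, -0.72 for KLF10 and -0.65 for KLF11. From H1R6 to the single H1R18 library it was 0.66 for KLF6, 1.33 for KLF7 and 0.52 for KLF9. No condition had 4 or more libraries, so no library was tested as an outlier.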

How the results depend on the processing

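Over 18 alternatives, 1171 of 1218 values of the 10 members stayed on their side of the threshold, 45 calls were lost, 2 were gained and 0 called values turned. The 1171 include uncalled values that changed sign, as for KLF3 at H1 against NC (-0.21 to 0.22 over the alternatives). Of 27 calls, 20 held in every alternative and 7 were lost in at least 1, and their values stand beside them in the report. The number of members lower than NC was 2 at H1R6, and 1 with RLE factors, upper-quartile factors, library size only, DESeq2, no filter on low counts, only the conditions compared or halved counts. It was 2 at H1R18, and 1 in the same alternatives apart from no filter on low counts, which left it at 2. The number higher at H1R6 than at H1R1 was 0, and 1 (KLF9, 0.34, adjusted p = 0.0494) with library size only. Leaving out 1 library gave 0 to 1 lower members at H1R1 against NC, 0 to 2 at H1R6 and 1 to 2 at H1R18. The number higher at H1 than in NC was 3, and 4 (with KLF16) with at least 10 counts in every library. The number higher at H1R1 than in NC was 5. It was 4 (without KLF10) with library size only, DESeq2, no filter on low counts or only the conditions compared. That number, the number lower from H1 to H1R1 and the number higher from H1R6 to H1R18 also fell in some fits without 1 library. The cause of these shifts was not tested. Over all genes, the share called at H1 against NC was 2.36% to 6.94% and at H1R1 9.79% to 29.9%. Of 83 calls of 41 named genes outside the 10, 55 held in every alternative. The order of the 10 by level per kb was the same by TPM in all 5 conditions. Other scalings moved the NC level of a member by at most 0.532%, which for KLF7 and KLF9 was beyond their SD between libraries.

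The replicate number as a block lowered the number of lower members from 2 to 1 at H1R6 and at H1R18, with 2 calls lost, KLF7 at H1R6 (adjusted p = 0.052) and KLF3 at H1R18 (adjusted p = 0.0557), and 0 gained. Over 11747 genes, the deviations of same-numbered libraries correlated at -0.0362 to 0.0443, so no large shift shared by same-numbered libraries was seen. That does not show whether same-numbered libraries were made together.

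With 2 libraries a condition and 1 at H1R18, and with 2 to 16 counts for KLF13, small differences were beyond the reach of the test. An adjusted p above the threshold does not show that a level was unchanged.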
